A study of Mus musculus with 7 samples.

Results

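The genes described here are 10 mouse genes of the inflammasome, of pyroptosis and of necroptosis, measured in liver RNA: *Nlrp3*, *Pycard*, *Casp1*, *Casp8*, *Gsdmd*, *Il1b*, *Il18*, *Ripk3*, *Mlkl* and *Zbp1*. They were taken by name from a count table of 23347 genes, and each of the 10 was found in it once. The RNA came from 7 male mice on a C57BL/6 background, all fed CDAHFD, a choline-deficient diet high in fat with its amino acids defined, for 15 weeks from 6 to 8 weeks of age, as is done to bring on steatohepatitis. Of these, 4 carried *B4galt1* alleles flanked by loxP sites and no Cre (*B4galt1* flox/flox, labelled WT), and 3 were labelled as hepatocyte knockouts of the galactosyltransferase gene *B4galt1* (*B4galt1* hep-/-, labelled B4-HKO). By the study's design the latter carry the floxed alleles together with Cre under the albumin promoter, a promoter active in hepatocytes, and recombination in hepatocytes or in other liver cells was not measured in these files. Each library came from 1 mouse, and chow-fed mice were not analysed here.

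An inflammasome forms when a cytosolic sensor such as NLRP3 recruits the adaptor ASC, the product of *Pycard*, and through it the protease caspase-1, which cleaves the precursors of IL-1β and IL-18 and also gasdermin D, whose fragment opens pores in the plasma membrane and ends the cell by pyroptosis. Necroptosis runs through the kinases RIPK1 and RIPK3 to the pore-forming protein MLKL when caspase-8, the protease at the branch point between survival, apoptosis and necroptosis, is not active, and ZBP1 is a nucleic acid sensor that can engage RIPK3. Both forms of death release cell contents and are studied as drivers of inflammation in fatty liver disease, where *Nlrp3* and *Il1b* are known mainly from macrophages and *Casp8* also from hepatocytes. These proteins are switched on by assembly, cleavage and phosphorylation, none of which RNA levels measure.

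Total counts ranged from 30608271 to 39668509 per liver, and the 13 genes encoded in mitochondrial DNA took 3.88 to 7.996% of counts in flox/flox livers and 14.4 to 22.6% in livers labelled hep-/-. Albumin stood between 57173 and 112888 CPM (counts scaled by TMM to a common library size) in the 7 livers, the level of a hepatocyte-rich tissue. *B4galt1* itself was at 48.7, 52.9, 49.2 and 51.6 CPM in flox/flox replicates 1 to 4 and at 28.4, 23.8 and 53.7 CPM in replicates 1 to 3 labelled hep-/-. The last of these was the highest of all 7 livers, against its label, and the group means of 50.6 ± 2.01 (SD, n = 4) and 35.3 ± 16.1 CPM (SD, n = 3) gave a two-sided exact permutation p of 0.143. Its log2 fold change was -0.52 over the 7 livers (edgeR adjusted p = 0.181) and -0.96, a call, without replicate 3 labelled hep-/- (edgeR adjusted p = 0.0139). Counts over a whole gene need not show the loss of a floxed exon. The group is therefore called livers labelled hep-/-, and the fold changes of the 10 genes and the counts of called pathway and marker genes are given with and without replicate 3.

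None of the 10 genes passed the test for a difference between the groups. All 10 were detected in every mouse, with 31 to 2110 counts each, and all 10 passed the filter on low counts that 15179 genes passed. A gene was called when its adjusted p from edgeR, a quasi-likelihood count model fitted over those 15179 genes, was under 0.05 and its log2 fold change (livers labelled hep-/- over flox/flox) was larger than 0.58 in either direction. By this rule 0 of the 10 genes were called, where 15.8% of all tested genes were. At an unadjusted p under 0.05 the count was also 0 of 10 by edgeR, against 32.9% of all tested genes. In other fits *Mlkl* reached that level with library totals alone, on log2 FPKM and without flox/flox replicate 3, *Il1b* without replicate 1 labelled hep-/- and *Casp1* without replicate 3, each without being called. DESeq2 called 0 of the 10 and 20.1% of its genes, limma-voom with sample weights 0 and 19.7%, and limma on log2 (FPKM + 1) 0 of the 9 it tested and 21%. In each of the 10 genes the CPM ranges of the groups overlapped, while 28.6% of tested genes had ranges that did not.

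The log2 fold changes of the 10 genes ran from -0.61 (*Il1b*) to 0.35 (*Il18*), with 5 below 0, 5 above and a median of -0.10, beside a median of 0.02 over all tested genes. Only *Il1b* had a log2 fold change larger than 0.58 in size, and 38.3% of tested genes had one. These results do not show equal levels. All 10 of the 95% intervals held 0, but only that of *Gsdmd* lay wholly within 0.58 of it on both sides. The intervals of 6 genes reached below -0.58 and those of 4 reached above 0.58, so for every gene but *Gsdmd* the interval from 4 and 3 livers held a change of that size.

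**Figure D1:**
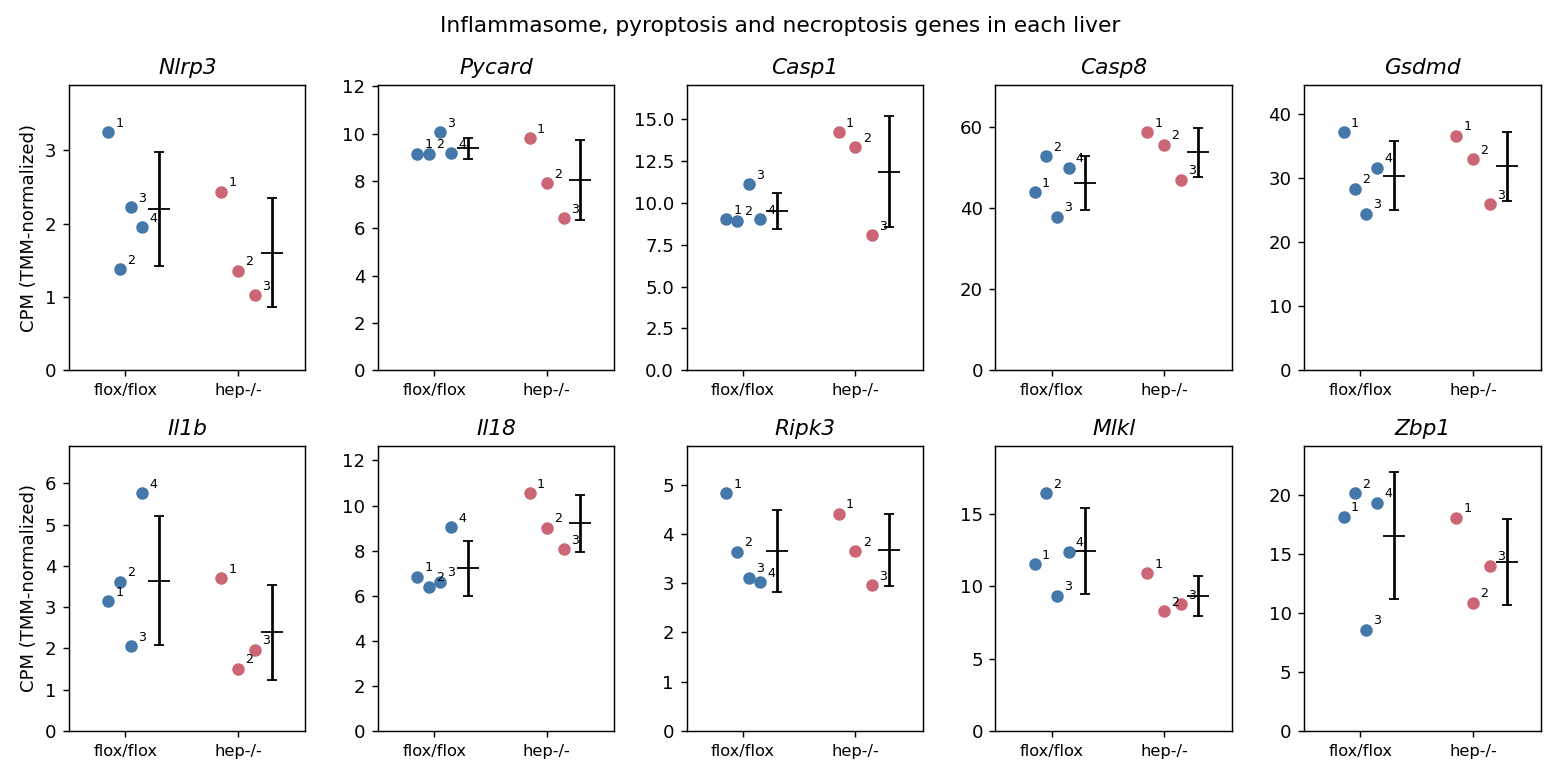
Level of each of the 10 genes in every liver, 1 panel per gene, in CPM on an axis that starts at 0, with *B4galt1* flox/flox livers beside livers labelled *B4galt1* hep-/-. Each point is 1 mouse, numbered by replicate, and each bar is the group mean with its SD; in every panel the points of the groups overlap.

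*Nlrp3*, the sensor of the best known inflammasome, was the scarcest of the 10 genes per unit of length. It was at 3.24, 1.38, 2.22 and 1.95 CPM in flox/flox replicates 1 to 4 and at 2.43, 1.36 and 1.02 CPM in replicates 1 to 3 labelled hep-/-. The highest liver of the series was flox/flox replicate 1, and 2 of the 3 livers labelled hep-/- lay below every flox/flox liver. Means were 2.20 ± 0.779 (SD, n = 4) and 1.603 ± 0.739 CPM (SD, n = 3), a log2 fold change of -0.46 ± 0.43 (SE) with a 95% interval of -1.40 to 0.49 (edgeR adjusted p = 0.495), and without replicate 3 labelled hep-/- it was -0.22. Without replicate 1 labelled hep-/- it was -0.90 (edgeR adjusted p = 0.238). Counts of *Nlrp3* were as low as 31 in 1 liver, and its interval was the widest of the 10.

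*Pycard*, which encodes the adaptor ASC, was the steadiest gene in control livers. Its levels were 9.15, 9.16, 10.05 and 9.18 CPM in flox/flox livers and 9.80, 7.90 and 6.41 CPM in those labelled hep-/-. The coefficient of variation in flox/flox livers was 4.72%, the smallest of the 10, and 2 livers labelled hep-/- lay below that narrow range while the other lay inside it. The log2 fold change was -0.22 ± 0.22 (SE; interval -0.70 to 0.25; edgeR adjusted p = 0.510), and without replicate 3 labelled hep-/- it was -0.09.

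*Casp1*, the gene of the protease that the inflammasome activates, lay the other way. Flox/flox livers had 9.03, 8.93, 11.1 and 9.04 CPM, and those labelled hep-/- had 14.2, 13.3 and 8.06 CPM. Replicates 1 and 2 labelled hep-/- were above every flox/flox liver and replicate 3, the liver with the *B4galt1* level of a control, was below them all. This was a log2 fold change of 0.32 ± 0.24 (SE; interval -0.20 to 0.83; edgeR adjusted p = 0.378). Without replicate 3 it was 0.52, with an edgeR adjusted p of 0.131 and an unadjusted p under 0.05, so a call was not made there either.

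The pore-forming substrate *Gsdmd* had a narrow interval around 0. Its levels were 37.2, 28.4, 24.5 and 31.7 CPM in flox/flox livers and 36.6, 33.0 and 26.0 CPM in those labelled hep-/-, and the latter lay inside the range of the former. The log2 fold change of 0.07 ± 0.20 (SE) had an interval of -0.37 to 0.50 (edgeR adjusted p = 0.842), and it was 0.19 without replicate 3 labelled hep-/-. Its sign was below 0 when counts were scaled by library totals alone.

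*Il1b* and *Il18* encode the cytokine precursors that caspase-1 cleaves. *Il1b* was at 3.15, 3.61, 2.06 and 5.76 CPM in flox/flox livers and at 3.70, 1.51 and 1.97 CPM in those labelled hep-/-. It varied more than any other of the 10 among control livers, with a coefficient of variation of 42.6%, and 2 livers labelled hep-/- lay below all 4 controls. Its log2 fold change of -0.61 ± 0.43 (SE; interval -1.53 to 0.32; edgeR adjusted p = 0.346) was the lowest of the 10. It was -0.49 without replicate 3 labelled hep-/-, and -1.08 without replicate 1 (edgeR adjusted p = 0.143).

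*Il18* was at 6.85, 6.40, 6.63 and 9.04 CPM in flox/flox livers and at 10.5, 9.01 and 8.06 CPM in livers labelled hep-/-. All 3 of the latter lay above 3 of the 4 controls, and flox/flox replicate 4, at the level of the second of them, made the ranges overlap. On the log2 scale the fold change was 0.35 ± 0.23 (SE; interval -0.14 to 0.84; edgeR adjusted p = 0.303), and 0.43 without replicate 3. Thus the cytokine genes lay on opposite sides of 0, neither of them past the test. The difference between these changes was not tested. In the RefSeq annotation of GRCm38 *Il1b* overlaps the antisense gene *Il1bos*, and *Il18* overlaps *Bco2* and *Tex12*, and whether the counts used strand is not given in the sources used here, so reads from such pairs cannot be told apart.

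*Casp8*, at the branch point between apoptosis and necroptosis, had 43.9, 52.9, 37.9 and 50.1 CPM in flox/flox livers and 58.7, 55.7 and 47.1 CPM in those labelled hep-/-. Replicates 1 and 2 labelled hep-/- were above all controls and replicate 3 was within their range. The log2 fold change was 0.22 ± 0.18 (SE; interval -0.18 to 0.62; edgeR adjusted p = 0.428), and 0.30 without replicate 3 labelled hep-/-.

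*Ripk3*, the kinase that phosphorylates MLKL, was at 4.83, 3.64, 3.11 and 3.02 CPM in flox/flox livers and at 4.41, 3.65 and 2.96 CPM in livers labelled hep-/-. The group means of 3.65 ± 0.830 (SD, n = 4) and 3.67 ± 0.728 CPM (SD, n = 3) were the closest of the 10, with a log2 fold change of 0.01 ± 0.30 (SE; interval -0.64 to 0.66; edgeR adjusted p = 0.987), and 0.13 without replicate 3 labelled hep-/-. The width of that interval left room for changes past 0.58 in either direction. *Ripk3* overlaps the predicted gene *Gm32092* in the same annotation.

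*Mlkl*, whose product opens the membrane in necroptosis, had the lowest p of the 10. It was at 11.5, 16.4, 9.34 and 12.4 CPM in flox/flox livers and at 10.9, 8.26 and 8.75 CPM in those labelled hep-/-. Replicates 2 and 3 labelled hep-/- lay below every control and replicate 1 lay between the lowest control and the next. A log2 fold change of -0.42 ± 0.24 (SE; interval -0.93 to 0.10) was not called (edgeR adjusted p = 0.241), and without replicate 3 labelled hep-/- it was -0.38. On the FPKM scale, which divides by library totals that include mitochondrial reads, the ranges did not meet, from 3.44 to 5.62 FPKM in flox/flox livers and from 2.62 to 3.35 in those labelled hep-/-, and limma on log2 FPKM still did not call it.

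*Zbp1*, the nucleic acid sensor of the group and an interferon-induced gene, was at 18.2, 20.1, 8.59 and 19.3 CPM in flox/flox livers and at 18.1, 10.9 and 14.0 CPM in livers labelled hep-/-. Flox/flox replicate 3 was the lowest liver of the series and the other 3 controls were the highest, so the controls spanned the whole range of the livers labelled hep-/-. The log2 fold change was -0.21 ± 0.29 (SE; interval -0.85 to 0.43; edgeR adjusted p = 0.652), and -0.20 without replicate 3 labelled hep-/-.

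Within the livers labelled hep-/-, replicate 1 had the highest CPM of its group for each of the 10 genes. With 1 liver left out at a time, the log2 fold change ran from -0.40 to -0.09 for *Pycard*, from 0.16 to 0.52 for *Casp1*, from 0.14 to 0.30 for *Casp8*, from 0.23 to 0.47 for *Il18*, from -0.56 to -0.26 for *Mlkl* and from -0.43 to -0.05 for *Zbp1*. None of the 10 was called in any of these fits.

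**Figure D2:**
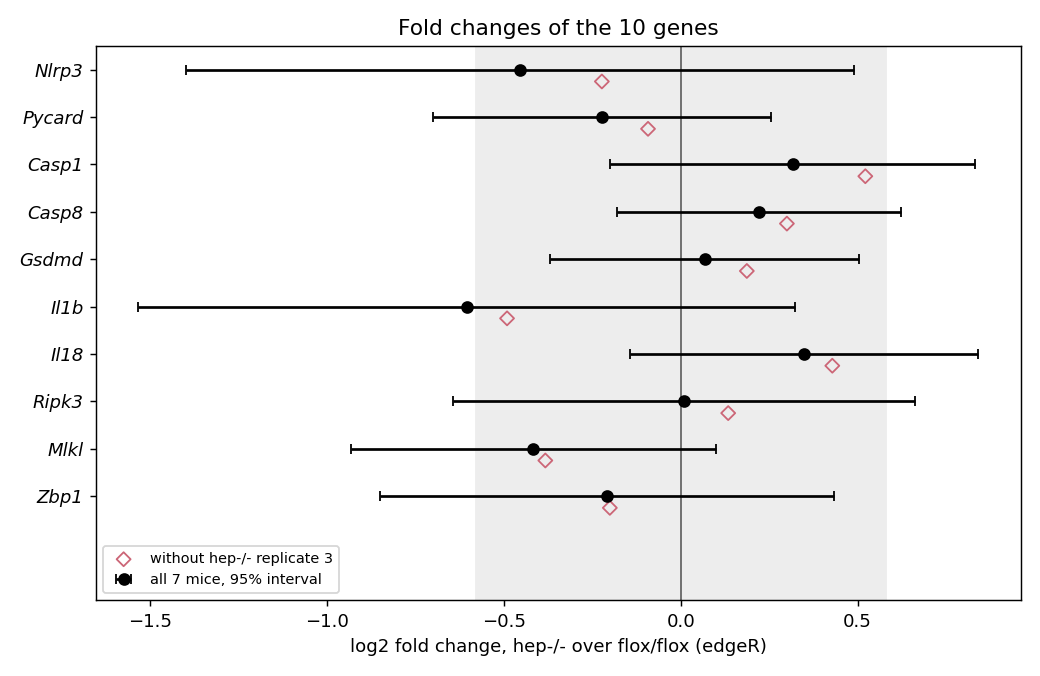
Log2 fold change of each of the 10 genes, livers labelled *B4galt1* hep-/- over flox/flox, by edgeR over all 7 livers and again without replicate 3 labelled hep-/-, with lines for the 95% interval of the fit over 7 livers and shading from -0.58 to 0.58. All 10 intervals cross 0, and *Il1b* at -0.61 and *Il18* at 0.35 mark the ends of the fit over 7 livers. Without replicate 3 labelled hep-/- *Casp1* is the highest, at 0.52.

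Per unit of length, in the fragment values scaled by length and depth (FPKM) that the authors deposited, *Gsdmd* and *Casp8* stood above the sensors and the cytokine genes. In flox/flox livers the order of mean FPKM was *Gsdmd* at 16.2, *Casp8* at 15.8, *Zbp1* at 7.91, *Casp1* at 6.57, *Pycard* at 4.58, *Mlkl* at 4.38, *Il18* at 2.88, *Il1b* at 1.97, *Ripk3* at 1.95 and *Nlrp3* at 0.571. *Gsdmd* and *Casp8* did not differ beyond their spread, with SDs of 3.69 and 1.74, nor did *Pycard* and *Mlkl* or *Il1b* and *Ripk3*. The ranges of *Il18* and *Il1b* met, but *Il18* was the higher within every liver of both groups. *Zbp1* overlapped *Casp1* through flox/flox replicate 3, which had 4.29 FPKM. Among the tested genes *Gsdmd* stood at percentile 81.8 of flox/flox mean FPKM and *Nlrp3* at percentile 22.4.

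Livers labelled hep-/- kept a similar order with a few neighbours exchanged. Mean FPKM was 17.1 for *Casp8*, 15.6 for *Gsdmd*, 7.57 for *Casp1*, 6.24 for *Zbp1*, 3.60 for *Pycard*, 3.39 for *Il18*, 3.01 for *Mlkl*, 1.79 for *Ripk3*, 1.19 for *Il1b* and 0.374 for *Nlrp3*. The exchanged neighbours, *Casp8* with *Gsdmd*, *Casp1* with *Zbp1*, *Il18* with *Mlkl* and *Ripk3* with *Il1b*, had ranges that overlapped in these 3 livers. *Nlrp3* was the lowest in both groups.

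**Figure D3:**
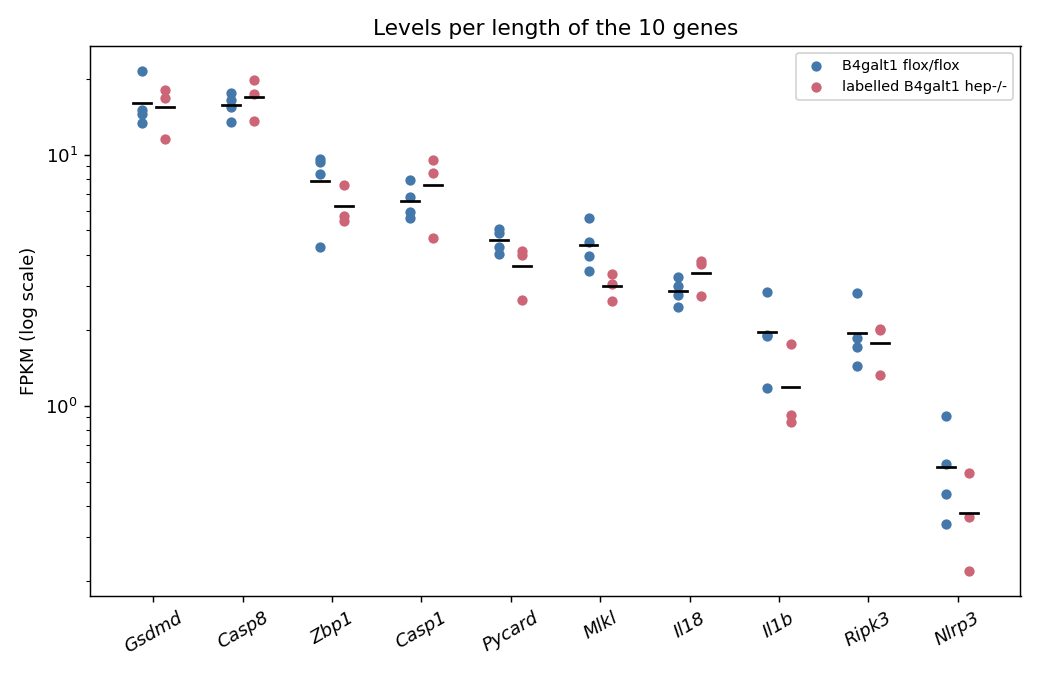
Deposited FPKM of the 10 genes on a logarithmic axis, each point 1 mouse, with *B4galt1* flox/flox livers and livers labelled *B4galt1* hep-/- side by side and the genes in order of mean FPKM in flox/flox livers. *Gsdmd* (16.2) and *Casp8* (15.8) lead and *Nlrp3* (0.571) is lowest.

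The other genes of these pathways were then taken from 6 lists that together name 106 genes apart from the 10, of which 104 were in the table and 101 were tested. In these lists 16 genes were called, 7 lower and 9 higher in livers labelled hep-/-, which is 15.8% of those tested and equals the 15.8% over all genes (7.83% lower and 8% higher). The 16 had CPM ranges that did not overlap between groups, as had 32 of the 101 in all, beside 28.6% of all tested genes. The split by direction depended on the scaling. With library totals alone, and also with limma on log2 (FPKM + 1), 17 genes were called, 14 lower and 3 higher (over all genes these fits called 16% and 21%). In both fits the 3 higher were *Birc2*, *Il1r1* and *Naip5*. *Nlrp6*, *Card9*, *Casp4*, *Tab2*, *Bax* and *Nfkbiz* were not called in them. The count was 7 without flox/flox replicate 2, 10 without flox/flox replicate 3 and 8 without replicate 2 labelled hep-/-, fits in which 5.9%, 9.36% and 7.76% of all genes were called. It was 16 without replicate 3 labelled hep-/- (13.8% of all genes), where *Nfkbiz* and *Tab2* were among the genes no longer called and *Casp12*, *Ninj1* and *Tnfrsf1a* were.

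Among 17 tested sensors and licensing factors of inflammasomes, 1 was called lower and 3 higher, with a median log2 fold change of 0.45. *Nlrp6*, a sensor best known from epithelia of the gut and also expressed in liver, was at 144, 68.2, 44.0 and 134 CPM in flox/flox livers and at 232, 359 and 152 CPM in those labelled hep-/-. It rose by a log2 fold change of 1.34 ± 0.40 (SE; edgeR adjusted p = 0.0410), and was no longer called in 4 of the 7 fits that left out 1 liver. *Card9*, an adaptor of C-type lectin receptors in myeloid cells, rose from 4.27 ± 1.51 (SD, n = 4) to 10.3 ± 4.75 CPM (SD, n = 3), a log2 fold change of 1.27 ± 0.35 (SE; edgeR adjusted p = 0.0317), and was also lost in 4 of those 7 fits.

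Of 4 NAIP genes, which encode receptors for bacterial flagellin and secretion proteins, *Naip2* and *Naip5* were called, in opposite directions, and *Naip1* (log2 fold change -0.33; edgeR adjusted p = 0.735) and *Naip6* (0.78; edgeR adjusted p = 0.129) were not. *Naip2* fell from 13.4 ± 4.91 to 5.44 ± 0.643 CPM (log2 fold change -1.30 ± 0.29 SE; edgeR adjusted p = 0.0141), and *Naip5* rose from 11.1 ± 2.92 to 25.4 ± 6.44 CPM (1.19 ± 0.24; edgeR adjusted p = 0.0105), both in each of the 7 fits without 1 liver. Their split is uncertain, since 18.1% of the 50-base stretches of *Naip2* transcripts and 32.3% of those of *Naip5* also occur in other genes of the family. Summed over *Naip1*, *Naip2*, *Naip5* and *Naip6*, the level was 30.6 ± 5.91 CPM (SD, n = 4) in flox/flox livers and 40.4 ± 9.96 (SD, n = 3) in those labelled hep-/- (two-sided exact permutation p = 0.257).

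Of 7 tested genes of the gasdermin pathway 1 was called, against 3 without replicate 3 labelled hep-/- (*Casp4* and *Casp12* higher, *Ninj1* lower) and 0 in each of 5 other fits without 1 liver. *Casp4*, the mouse caspase-11 gene, which senses cytosolic lipopolysaccharide and cleaves gasdermin D without an inflammasome, was at 7.75, 6.47, 5.34 and 7.15 CPM in flox/flox livers and at 12.1, 15.1 and 8.25 CPM in those labelled hep-/-. Replicate 3 labelled hep-/- was again the lowest of its group, as for the neighbouring gene *Casp1*. *Casp4* rose by a log2 fold change of 0.82 ± 0.25 (SE; edgeR adjusted p = 0.0458), a call lost in 5 of the 7 fits without 1 liver. The list's median was 0.56.

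Among 18 ligands, receptors and inhibitors of the IL-1 family 1 gene was called, *Il1r1*, the signalling receptor for IL-1β. It was at 34.6, 35.8, 57.8 and 32.1 CPM in flox/flox livers and at 77.1, 104 and 134 CPM in those labelled hep-/-, and all 3 of these exceeded every control. The log2 fold change was 1.39 ± 0.25 (SE; edgeR adjusted p = 0.00732), and it was called in each fit without 1 liver. The median of the list was 0.00. *Il1rn*, the receptor antagonist that competes with IL-1β, named here for its link to *Il1b* after its values were seen, had 45.6 ± 9.22 and 29.3 ± 2.68 CPM and a log2 fold change of -0.64 that missed the threshold (edgeR adjusted p = 0.0521). It was called lower by DESeq2, by voom with sample weights, with library totals alone, by limma on FPKM of at least 1, with either other filter on low counts and without flox/flox replicate 1. It was not called with other scalings, without mitochondrial genes or by limma over all genes above 0. Neither the replicate number as a block nor leaving out any other single liver gave a call.

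Of 24 tested regulators of necroptosis 1 was called lower and 2 higher, with a median of 0.05. *Fadd*, the adaptor that binds caspase-8, was at 8.94, 9.78, 7.26 and 8.36 CPM in flox/flox livers and at 4.19, 3.74 and 5.79 CPM in those labelled hep-/-, a fall of -0.91 ± 0.25 on the log2 scale (SE; edgeR adjusted p = 0.0317) that was lost in 5 of the 7 fits without 1 liver. *Birc2*, the gene of the ubiquitin ligase cIAP1 that modifies RIPK1, rose from 35.3 ± 1.53 to 81.5 ± 35.6 CPM (log2 fold change 1.21 ± 0.25 SE; edgeR adjusted p = 0.0105) in each of those fits, with 57.5, 122 and 64.7 CPM in the 3 livers labelled hep-/-. *Tab2*, an adaptor of the kinase TAK1, rose from 53.6 ± 3.56 to 81.5 ± 8.44 CPM, by 0.61 ± 0.17 (SE; edgeR adjusted p = 0.0335), and kept its call in 1 of the 7. *Ripk1*, the kinase partner of *Ripk3*, and *Cflar*, the inhibitor of caspase-8, named for these links after their values were seen, had log2 fold changes of -0.26 and -0.16 (edgeR adjusted p = 0.402 and 0.637).

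In the 18 genes of death receptors and apoptotic caspases 3 fell and 1 rose, with a median of -0.28, and without replicate 3 labelled hep-/- *Tnfrsf1a* was called lower too. *Casp6*, an executioner caspase, fell from 31.4 ± 4.43 to 15.6 ± 4.21 CPM (log2 fold change -1.01 ± 0.22 SE; edgeR adjusted p = 0.0141). *Casp9*, the initiator of the mitochondrial pathway, fell from 19.7 ± 2.40 to 10.3 ± 1.65 CPM (-0.94 ± 0.20; edgeR adjusted p = 0.0125), and both were called in each fit without 1 liver. The pore-forming genes *Bak1* and *Bax* were called in opposite directions, *Bak1* falling from 22.7 ± 1.85 to 13.03 ± 1.78 CPM (-0.80 ± 0.18; edgeR adjusted p = 0.0166) and *Bax* rising from 33.3 ± 6.72 to 53.6 ± 9.17 CPM (0.69 ± 0.21; edgeR adjusted p = 0.0439). *Bak1* was lost in 2 and *Bax* in 5 of the 7 fits without 1 liver. With library totals alone and by limma on log2 FPKM *Bak1* kept its call and *Bax* did not. *Bak1* overlaps *Ggnbp1* and *Casp9* overlaps *Cela2a* in the annotation, so their reads cannot be separated.

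Of the 18 receptors and transcription factors that prime these genes, 2 were called lower and 1 higher, with a median of 0.04, and without replicate 3 labelled hep-/- 1 was called, *Tlr9*. *Tlr9*, the endosomal receptor for DNA, had 44, 24, 76 and 15 counts in flox/flox livers and 0, 3 and 2 counts in those labelled hep-/- (edgeR adjusted p = 0.0123). It passed the filter on low counts only through the flox/flox livers, and a filter of at least 10 counts in every mouse left it untested. *Nfkbiz*, which encodes a regulator of NF-κB, rose from 20.8 ± 5.42 to 34.5 ± 2.25 CPM (log2 fold change 0.73 ± 0.21 SE, edgeR adjusted p = 0.0410). Its call was lost in 5 of the 7 fits, and it missed the threshold without replicate 3 labelled hep-/- (edgeR adjusted p = 0.0643).

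**Figure D4:**
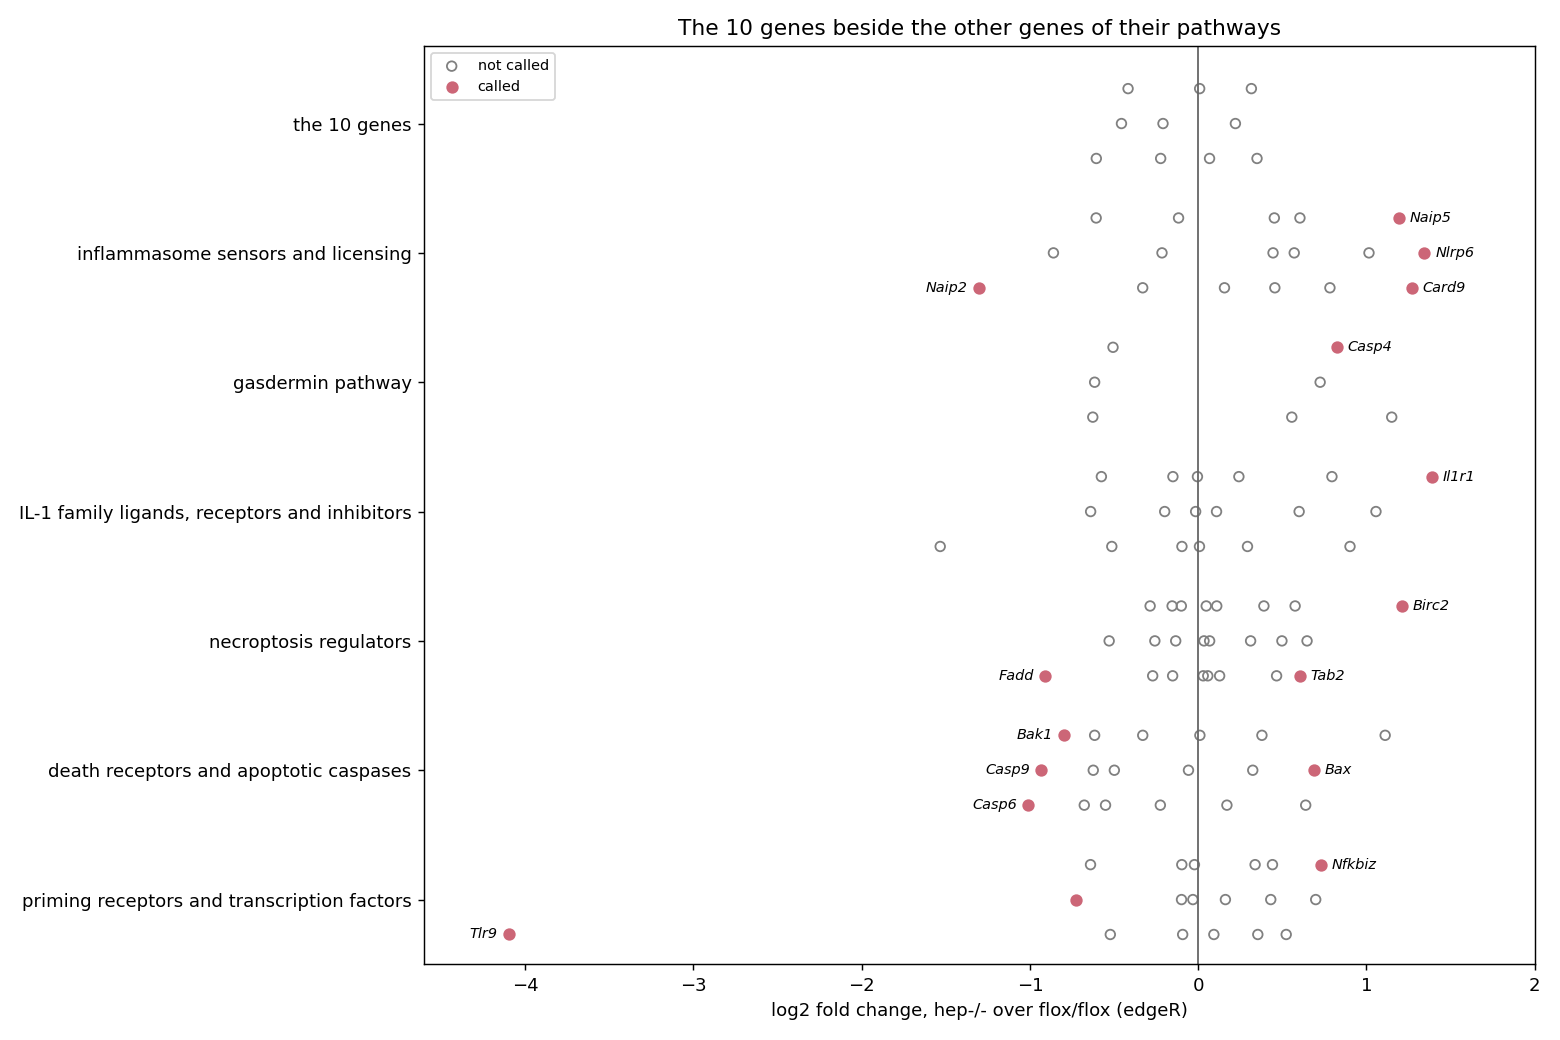
Log2 fold change, livers labelled *B4galt1* hep-/- over flox/flox, of the 10 genes and of the 101 tested genes of the 6 pathway lists, 1 point per gene and 1 band per list, with filled points for genes called by edgeR, 1 of them without a name (points are spread vertically within a band for legibility). The 10 genes lie between -0.61 and 0.35 with none called, and 16 genes of the lists are called, 7 lower and 9 higher.

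Part of the macrophage markers were called lower in livers labelled hep-/- and none higher. Summed over 6 general leukocyte and macrophage markers, flox/flox livers had 877 to 2131 CPM and those labelled hep-/- had 469 to 496 CPM, with 4 of the 6 called lower, none at 0 in any mouse. *Lyz2*, a lysozyme of macrophages, fell from 1004 ± 409 to 226 ± 37.1 CPM (log2 fold change -2.15, edgeR adjusted p = 0.00380). It alone gave 573 to 1555 CPM of the sum in flox/flox livers and 192 to 266 CPM in those labelled hep-/-. *Adgre1* and *Cd68* were called lower too, whereas *Ptprc*, carried by all leukocytes, was at a log2 fold change of 0.37 (edgeR adjusted p = 0.231). Kupffer cell markers summed to 185 to 425 and 95.03 to 198 CPM, with 2 of 5 called lower, and those of recruited or lipid-associated macrophages to 629 to 1354 and 317 to 389 CPM, with 2 of 6 called lower. Without replicate 3 labelled hep-/- the counts called lower were 3 of 6, 0 of 5 and 1 of 6 in these lists, as *Laptm5*, *Vsig4*, *Marco* and *Trem2* missed the threshold. In whole liver RNA fewer cells of a type and less RNA per cell cannot be told apart.

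Over the same mice the summed level of the 10 genes was 116 to 151 CPM in flox/flox livers and 124 to 169 CPM in those labelled hep-/-. Flox/flox replicate 3 had the highest sum of macrophage markers, 2131 CPM, and the lowest sum of the 10 genes, 116 CPM. The single genes did not all follow that sum. Among the controls this liver was lowest for *Casp8* (37.9 CPM), *Gsdmd* (24.5), *Zbp1* (8.59), *Mlkl* (9.34) and *Il1b* (2.06). It was highest for *Pycard* (10.05 CPM) and *Casp1* (11.1), and in between for *Nlrp3*, *Il18* and *Ripk3*. Neutrophil markers summed to 26.0 to 38.3 and 27.3 to 49.6 CPM with 0 of 6 called, and hepatocyte markers also had 0 of 6 called. Without replicate 3 labelled hep-/- 1 of each was called, the neutrophil gene *Csf3r* higher (log2 fold change 0.85; edgeR adjusted p = 0.0318) and the urea cycle gene *Cps1* lower (-1.43; edgeR adjusted p = 0.0106). The part of the marker levels and of the mitochondrial share in the values of the 10 genes was not tested.

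**Figure D5:**
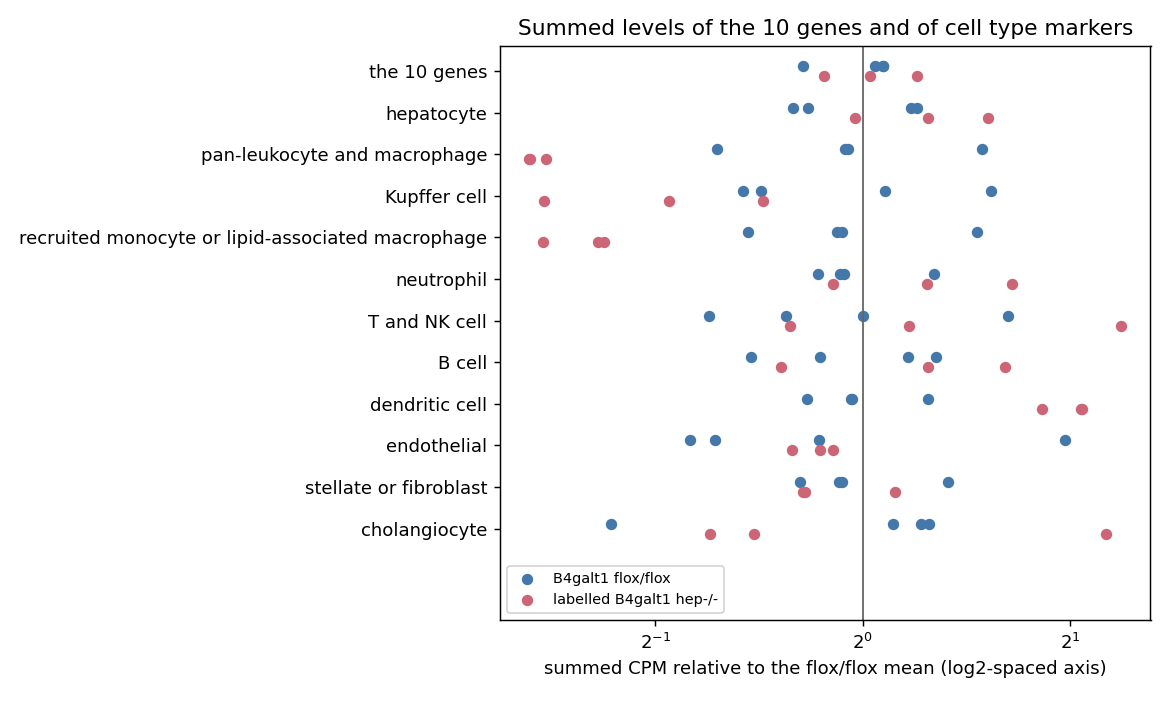
Summed CPM of the 10 genes and of 11 cell type marker lists in every liver, divided by the mean of the *B4galt1* flox/flox livers, on a logarithmic axis, each point 1 mouse. General macrophage markers (877 to 2131 CPM in flox/flox livers, 469 to 496 CPM in livers labelled *B4galt1* hep-/-) separate the groups, and the sums of the 10 genes overlap.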

How the data were processed

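RNA from the livers of 7 mice was analysed, 4 labelled WT, which the study describes as *B4galt1* flox/flox littermates, and 3 labelled B4-HKO. The authors deposited whole-number counts per gene, not normalized, and FPKM values of the same genes and mice. Fastp, HISAT2, HTSeq, DESeq2, R 3.2.0 and the build GRCm39 are named in the submitters' processing notes, while the annotation and use of strand are not given in the sources used here. Reference tables were of GRCm38, so no coordinates are printed and RefSeq and GENCODE of that build served for overlapping genes and shared transcript sequence.

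No sample column was left unmapped (0), and none of the 21 pairs of libraries was a copy. After filterByExpr (minimum count 10, minimum total 15), 15179 of 23347 genes remained. On these, edgeR 4.0.16 (R 4.3.3) fitted a quasi-likelihood model of TMM-normalized data with the genotype label as its sole factor, and p-values were adjusted by Benjamini-Hochberg over all tested genes. CPM values are TMM-scaled. A call needed both an adjusted p under 0.05 and a log2 fold change beyond 0.58 in size, the thresholds of the study. Standard errors and 95% intervals were computed from the F statistic. The alternatives were DESeq2 1.42.0, limma 3.58.1 on log2 FPKM after adding 1 or 0.1, voom with sample weights, other scalings and filters and each fit without 1 mouse. Single values were compared by a two-sided exact permutation test over 35 splits, whose smallest p is 0.0286. The count test was checked on simulated data. A count of 3 corresponded to 0.0690 to 0.0986 CPM, and the counts reflect reads without molecular identifiers.

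The 10 genes, the 6 pathway lists and the 11 marker lists were chosen with earlier results of these data known. The rule for named genes took the 10, each called gene of the pathway lists and *B4galt1*, with markers as lists and their defining genes. Other genes named (pathway genes that were not called, and single markers whose call changed) were chosen after their values were seen; 1 called gene of the priming list is counted but not reported here. Genes most like a called member were to be named, and as no member was called there were none. The mice were separate animals by their labels. The edgeR p-values set the group difference against the spread between these mice, estimated in part over all tested genes. The permutation p-values rank the observed split among the 35.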

Additional observations from a re-analysis of the deposited data

Results flagged for a closer look

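In 3 of the 27 genes whose 4 flox/flox values were examined, 1 liver stood apart from the others by more than Dixon's critical value for 4 samples, and each time it was flox/flox replicate 3. *Pycard* was at 10.05 CPM in that liver against 9.15 to 9.18 CPM in the other 3, a gap of 0.966 of the range, within a group that was otherwise tight. *Casp1* was at 11.12 CPM there against 8.93 to 9.04 CPM, a gap of 0.951 of the range. *Il1r1* was at 57.77 CPM against 32.1 to 35.8 CPM, a gap of 0.855 of the range, and the 3 livers labelled hep-/- were still higher. Chance flags about 1 in 20 groups. The same liver had the highest sum of general macrophage markers, 2131 CPM, and the lowest mitochondrial share, 3.88%. Its sums of Kupffer cell (425 CPM), recruited macrophage (1354), endothelial (242) and stellate markers (976) were also the highest. The part of the marker levels and of the mitochondrial share in these values was not tested.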

How the results depend on the processing

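The count of called genes among the 10 was 0 in every alternative run. Their median log2 fold change, -0.10, ranged from -0.28 (without replicate 1 labelled hep-/-) to 0.0206 when 1 liver was left out. Of the pathway lists 16 genes were called, 19 with DESeq2, 21 with voom and sample weights, 9 with limma on log2 (FPKM + 1) over all genes above 0, and 7 to 17 when 1 liver was left out. With the replicate number as a block the pathway count was 7 and the count over all genes 1267, against 2404 without it. The mice were different animals, and deviations of equally numbered mice correlated at -0.32, -0.03 and 0.07, so the numbers gave no pairing, and flox/flox replicate 1 correlated best with another number.

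Of the 10 genes only *Gsdmd* and *Ripk3*, both near 0, changed sign. *Gsdmd* was at -0.0548 with library totals, -0.0520 and -0.0553 on log2 FPKM with pseudocounts of 1 and 0.1, -0.0520 over all genes above 0, and -0.0563 to 0.19 without 1 liver. *Ripk3* was at -0.13, -0.0735, -0.10 and -0.0735 in those 4 settings, -0.0131 with genes of at least 1 count, -0.0664 with the replicate block and -0.16 to 0.17 without 1 liver. Relative to the fit reported, the median of all genes shifted by -0.125 with library totals and by -0.165 on log2 (FPKM + 1), and the share of calls that were higher went from 50.5% to 26.7% and 24.5%; the cause was not tested. Calls over all genes fell to 885 without flox/flox replicate 2, 1405 without flox/flox replicate 3, 1552 without flox/flox replicate 4 and 1199 without replicate 2 labelled hep-/-, and were 1330 with limma over all genes above 0. *Nlrp3* was not tested in the fits that needed an FPKM of 1.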

Other observations

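The balance between some of the 10 genes and a partner was read as a ratio of CPM within a liver, for 8 pairs chosen after the values were seen and compared on the log2 scale by a two-sided exact permutation test over the 4 and 3 mice. *Casp1* over its adaptor gene *Pycard* lay between 0.9753 and 1.107 in the 4 flox/flox livers and was 1.45, 1.69 and 1.26 in those labelled hep-/-. All 3 of the latter exceeded every control, replicate 3 included (exact permutation p = 0.0286, the smallest possible, and 0.114 adjusted over the 8 pairs, which could pass only if most pairs reached that p). *Casp8* over its adaptor gene *Fadd* was 5.38 ± 0.453 (SD, n = 4) and 12.4 ± 3.68 (SD, n = 3), with the same exact permutation p of 0.0286 and adjusted 0.114. *Fadd* was itself called lower, so this ratio is no separate result.

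*Il18* over *Il18bp*, the gene of its secreted decoy, was 0.333 ± 0.114 in flox/flox livers and 0.582 ± 0.140 in those labelled hep-/-, and *Casp1* over *Casp4* was 1.47 ± 0.416 and 1.01 ± 0.152, both with an exact permutation p of 0.0857 (adjusted 0.171). *Il1b* over *Il1rn* was 0.0832 ± 0.0367 and 0.0806 ± 0.0327 (exact permutation p = 0.971). The other 3 pairs had exact permutation p-values of 0.4 for *Casp8* over *Cflar* (0.827 ± 0.262 and 1.02 ± 0.154), 0.486 for *Ripk3* over *Ripk1* (0.126 ± 0.0411 and 0.151 ± 0.0435) and 0.2 for *Mlkl* over *Ripk3* (3.50 ± 0.977 and 2.56 ± 0.356).

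Markers of other cells did not all follow the macrophage markers. Dendritic cell markers summed to 11.5 to 17.2 CPM in flox/flox livers and 25.2 to 28.8 CPM in those labelled hep-/-, with 1 of 5 called higher, *Clec9a* at a log2 fold change of 1.39 (6.06 ± 1.71 and 15.8 ± 1.11 CPM). *Clec9a* made up most of that sum in livers labelled hep-/-, while *Xcr1* and *Cd209a* had log2 fold changes of -0.76 and -0.01, neither called. Without replicate 3 labelled hep-/- *Siglech* was called higher as well. T and NK cell markers (12.4 to 33.7 and 16.2 to 49.2 CPM) had 0 of 5 tested called. B cell, stellate and cholangiocyte markers had none called, and 1 of 5 endothelial markers, *Kdr*, was called lower, a call that was lost without replicate 3 labelled hep-/- (edgeR adjusted p = 0.0931).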
